A study of Mus musculus with 16 samples.

Results

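The miR-29 family of mature microRNAs, mmu-miR-29a-3p, mmu-miR-29b-3p and mmu-miR-29c-3p (written without the species prefix from here on), was followed in extracellular vesicles (EVs) of bone marrow plasma. Its 3 members were taken by name from a table of 1915 mature microRNA entries, and all 3 passed the low-count filter that left 234 entries to test. Vesicles were captured with an antibody to the HA tag from mice of 6 months, on a C57BL/6N background, that carried the CAGS-Snorkel reporter. The first group, called Ocn, combined the reporter with Ocn-Cre, which uses the osteocalcin promoter and reaches mature osteoblasts and osteocytes; it had 6 mice, 3 of each sex. The second, called Prx1, combined it with Prx1-Cre, which is active in early limb mesenchyme and marks its descendants; it had 10 mice, 5 of each sex. Limb osteoblasts descend from cells marked by Prx1-Cre, so the cells reached by the 2 drivers overlap. Vesicles captured from mice without Cre were not analysed here, so the level that capture gives without a driver is unknown.

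MicroRNAs of this family pair through their seed with messages of extracellular matrix genes, among them the fibrillar collagens Col1a1, Col1a2 and Col3a1, and lower their output. In human osteoblastic cells miR-29a also represses the Wnt antagonists DKK1, KREMEN2 and SFRP2, and in mouse osteoblast cultures miR-29b represses Hdac4, a repressor of Runx2. The family is therefore known both as a brake on collagen and as a regulator that favours osteoblast differentiation. None of these target messages was measured here.

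The mature sequences are shown because the members share the whole seed and differ by few bases, which bears on how reads can be told apart. They are from RefSeq (GRCm38.p6), with the seed, bases 2 to 8, in capitals.
miR-29a-3p: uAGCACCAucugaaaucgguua
miR-29b-3p: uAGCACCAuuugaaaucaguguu
miR-29c-3p: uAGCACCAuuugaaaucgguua
Counted from 1 at the 5′ end, miR-29a-3p and miR-29c-3p differed at a single base (C10U, the miR-29a-3p base first). miR-29b-3p differed from miR-29c-3p at 3 of the 22 positions compared (G18A, U21G and A22U, the miR-29c-3p base first) and was 1 base longer. Among 1679 mature mouse microRNAs of that RefSeq table, these 3 were the only ones with the seed AGCACCA. The sources used here do not give the mismatches allowed when reads were assigned, so some exchange of reads between miR-29a-3p and miR-29c-3p cannot be told from true counts of either.

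The family is made from 4 hairpins in 2 clusters (GRCm38). Mir29a (chr6:31062660-31062747) and Mir29b-1 (chr6:31063023-31063093) lie on the minus strand with 275 bases between them. In the GENCODE annotation Mir29a overlapped no host gene, and Mir29b-1 overlapped the edge of an exon of the lincRNA Gm27019. Mir29b-2 (chr1:195037040-195037120) and Mir29c (chr1:195037547-195037634) lie on the plus strand with 426 bases between them, inside an exon of the noncoding A330023F24Rik and opposite an exon of Cd46. Mature miR-29b-3p is identical from both of its hairpins, whereas their 5p arms differ and so mark the locus.
miR-29b-1-5p: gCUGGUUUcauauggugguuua
miR-29b-2-5p: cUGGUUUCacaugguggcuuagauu
Capitals again mark bases 2 to 8.

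Ocn libraries held 582660 to 1536421 counts (log10 total 5.94 ± 0.17, SD, n = 6) and Prx1 libraries 225273 to 813770 counts (5.58 ± 0.16, SD, n = 10), so depth moved with the group. Over all 234 tested entries edgeR called 5.98% higher and 7.69% lower in Ocn, and the counts of called cell type markers that follow are to be read against these shares. Of 9 mesenchymal and stromal marker microRNAs, all tested, 2 were called higher in Ocn, and their summed level was 44805 to 61947 CPM (counts scaled to a library total of 1000000) in Ocn and 36234 to 53353 CPM in Prx1. Of 3 lymphoid markers 1 was called lower in Ocn, with sums of 2415 to 4895 CPM in Ocn and 3149 to 6350 CPM in Prx1. Of 4 muscle markers 2 were called lower in Ocn, with sums of 46727 to 77413 CPM in Ocn and 39885 to 70774 CPM in Prx1. Of 4 erythroid markers 1 was called lower, with sums of 14654 to 27749 CPM in Ocn and 18434 to 27471 CPM in Prx1, and the 4 myeloid and pan-leukocyte markers summed to 39360 to 94638 CPM in Ocn and 42431 to 69316 CPM in Prx1. The 2 endothelial markers, the 2 liver markers (1 of them tested) and the 5 epithelial markers (3 tested) held none that was called. Endothelial sums were 16712 to 20837 CPM in Ocn and 12913 to 19289 CPM in Prx1, and epithelial sums 250 to 453 CPM in Ocn and 229 to 360 CPM in Prx1. Liver sums were 160 to 304 CPM in Ocn (median 180.2) and 139 to 1910 CPM in Prx1 (median 185). No marker of these lists was at 0 in all libraries, and their part in the miR-29 values was not tested.

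miR-29a-3p was lower in the Ocn vesicles, while the calls for miR-29b-3p and miR-29c-3p missed the threshold. The make-up of the family differed between the groups, with both others higher in Ocn relative to miR-29a-3p, while its summed level was not tested. Depth moved with the group. Neither the call of miR-29a-3p nor the ratios to it passed the threshold in every setting, as given below. From mouse to mouse the Pearson correlation of miR-29c-3p with miR-29a-3p passed the threshold in both groups and the rank correlation in Prx1 but not in Ocn. No correlation of miR-29b-3p with either member passed.

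miR-29a-3p was the abundant member, with a median of 11896 CPM in Ocn (lowest 10238, highest 16033) against 22345 CPM in Prx1 (lowest 10002, highest 28031). It was the 13th to 17th most abundant entry of an Ocn library and the 8th to 20th of a Prx1 library. The groups overlapped: 8 of 10 Prx1 libraries lay above every Ocn library, while Prx1 6 (11856 CPM) lay inside the Ocn range and Prx1 7 (10002 CPM) just below it. The 6 Ocn libraries averaged 12624 ± 2063 CPM (SD) and the 10 Prx1 libraries 20782 ± 6157 CPM (SD), and all 6 Ocn libraries were below the Prx1 mean. The log2 fold change of Ocn over Prx1 was -0.76 (SE 0.18, adjusted p = 0.00756, edgeR's quasi-likelihood test with Benjamini-Hochberg adjustment over 234 entries), or 0.592-fold. In that fit 13.7% of tested entries were called in either direction and 7.69% were called lower in Ocn. Fewer vesicles of one source and fewer copies of a microRNA per vesicle cannot be told apart in these values.

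**Figure D1:**
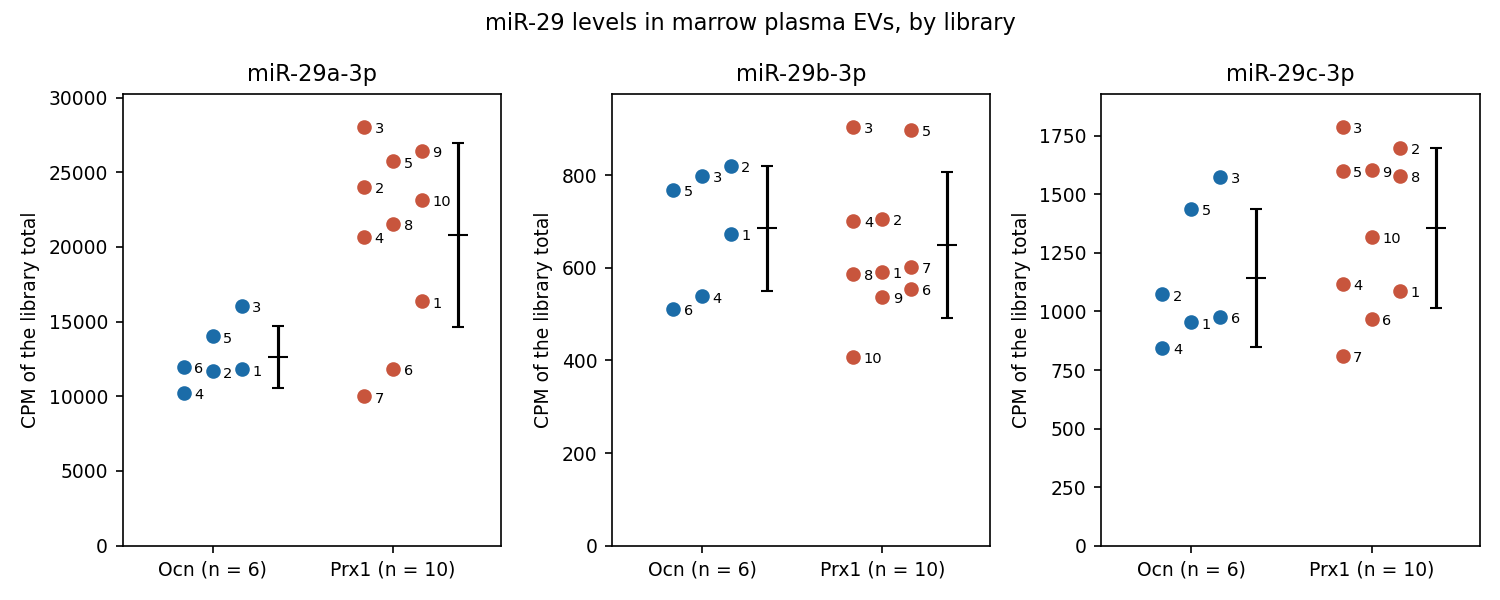
Level of each miR-29 member in CPM of the library total (vertical axes, from 0), with 1 numbered point per library, Ocn left of Prx1, and the mean ± SD beside the points. For miR-29a-3p, 8 of 10 Prx1 libraries lie above every Ocn library and Prx1 6 and Prx1 7 lie among or below them, while the groups overlap widely for miR-29b-3p.

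Of the 3 settings that take account of depth, 1 kept the call for miR-29a-3p and 2 lost it, all with a difference close to that above or larger. With every library thinned to the smallest total, 225273 counts, the log2 fold change was -0.75 (SE 0.17, edgeR adjusted p = 0.00574) and 27 entries were called. When log10 depth entered the model as a covariate, the log2 fold change was -0.90 (SE 0.25, edgeR adjusted p = 0.0869), and 0 entries of the whole table were called by edgeR in that fit, against 40 at an unadjusted p under 0.05. Only 3 Ocn and 2 Prx1 libraries had totals in the range that both groups reached, 582660 to 813770 counts. In them miR-29a-3p had 11801, 16033 and 11992 CPM in Ocn 1, Ocn 3 and Ocn 6, against 21544 and 26439 CPM in Prx1 8 and Prx1 9. With 3 against 2 libraries an exact permutation test cannot go below p = 0.200, so the lack of overlap carries little weight. How many other entries separated in this way was not counted. The log2 fold change in these libraries was -0.91 (SE 0.20, edgeR adjusted p = 0.0860), again with 0 entries called in the whole table (30 at an unadjusted p under 0.05).

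Within a group, no relation of the miR-29a-3p level to depth passed the threshold, though tests on 6 and 10 libraries can miss a sizeable one. In Ocn the correlation of log2 CPM with the log10 total had Pearson's r of -0.20 (exact permutation p = 0.686) and Spearman's rho of -0.31 (exact permutation p = 0.564), n = 6. In Prx1, r was 0.30 (permutation p = 0.390) and rho 0.49 (permutation p = 0.154), n = 10, and r was 0.08 without the libraries farthest from the median total, Prx1 8 and Prx1 9. Without Ocn 3 and Ocn 5, the farthest in Ocn, r was -0.58. The smallest adjusted p of all 6 relations between depth and a member was 0.604 by permutation.

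**Figure D2:**
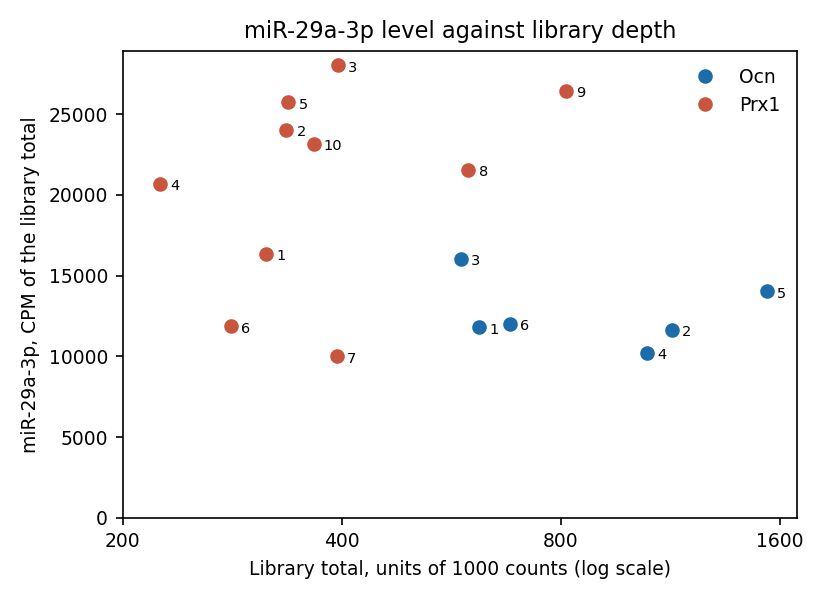
miR-29a-3p in CPM of the library total (vertical axis, from 0) against the library total in units of 1000 counts (log axis), with 1 numbered point per library. Ocn libraries are deeper, and in the range of totals that both groups reach the Prx1 libraries 8 and 9 lie above Ocn 1, 3 and 6. That range holds 3 Ocn and 2 Prx1 libraries, too few for an exact permutation test to go below p = 0.200.

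miR-29c-3p had a median of 1025 CPM in Ocn (lowest 844, highest 1576) against 1448 CPM in Prx1 (lowest 811, highest 1788). The groups overlapped, with 5 of 10 Prx1 libraries above every Ocn library, 4 inside the Ocn range and 1 below it. It averaged 1144 ± 294 CPM (SD) over the 6 Ocn libraries and 1357 ± 341 CPM (SD) over the 10 Prx1 libraries. Its log2 fold change was -0.29 (SE 0.16, edgeR adjusted p = 0.232), with a 95% interval of -0.61 to 0.02 (normal approximation from the SE). The call missed the threshold, and that interval includes 0.

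miR-29b-3p, whose 3′ end (AGUGUU) is the element known to direct human miR-29b into the nucleus, was the rarest member. Its median was 721 CPM in Ocn (lowest 511, highest 820) against 597 CPM in Prx1 (lowest 407, highest 904), and 7 of 10 Prx1 libraries lay inside the Ocn range. It averaged 685 ± 134 CPM (SD) over the 6 Ocn libraries and 649 ± 157 CPM (SD) over the 10 Prx1 libraries. The log2 fold change was 0.04 (SE 0.15, edgeR adjusted p = 0.879), with a 95% interval of -0.25 to 0.33. Its sign turned under several settings, and it was called in none of the fits. Even its lowest count, 149 in Prx1 10, gives 407 CPM with an exact Poisson interval of 345 to 478 CPM, so counting error is smaller than the spread between mice.

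Summed over the members, the family made up 11620 to 18407 CPM in Ocn (median 13517) and 11415 to 30722 CPM in Prx1 (median 24290), averaging 14452 ± 2434 CPM (SD) over the 6 Ocn libraries and 22787 ± 6541 CPM (SD) over the 10 Prx1 libraries. miR-29a-3p held 87.4% ± 1.1 (SD) of the family's counts in the Ocn libraries and 90.9% ± 1.7 (SD) in the Prx1 libraries. miR-29c-3p held 7.82% ± 0.75 in Ocn and 6.08% ± 0.76 in Prx1, while miR-29b-3p held 4.76% ± 0.76 in Ocn and 3.06% ± 1.06 in Prx1.

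Whether the members differed in their change was tested on ratios within each library, which do not depend on scaling. For every 100 counts of miR-29a-3p there were 8.96 ± 0.94 (SD) of miR-29c-3p in the 6 Ocn libraries (8.08 to 10.3) and 6.71 ± 0.95 (SD) in the 10 Prx1 libraries (5.41 to 8.18). The log2 ratio was higher in Ocn by 0.42 (SE 0.09, exact permutation p = 0.00125 over all 8008 assignments of 16 libraries to groups of 6 and 10, 2-sided, adjusted p = 0.00375 over 3 ratios). Prx1 6 and Prx1 7, the libraries low in miR-29a-3p, were the only ones of Prx1 to reach the Ocn range.

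For every 100 counts of miR-29a-3p there were 5.45 ± 0.92 (SD) of miR-29b-3p in the 6 Ocn libraries (4.26 to 7.03) and 3.39 ± 1.24 (SD) in the 10 Prx1 libraries (1.76 to 6.02). The log2 ratio was higher in Ocn by 0.75 (SE 0.19, exact permutation p = 0.00350, adjusted p = 0.00524). Here too Prx1 6 and Prx1 7 lay in the Ocn range, and the other 8 Prx1 libraries lay below it. The ratio of miR-29c-3p to miR-29b-3p, the pair that shares the chromosome 1 cluster, differed by -0.33 on the log2 scale (SE 0.17, exact permutation p = 0.0994, adjusted p = 0.0994) and missed the threshold. Of 16 repeats that each left out 1 library, only 1 passed, that without Prx1 7 (difference -0.40, exact permutation adjusted p = 0.0388). The highest adjusted p of these repeats was 0.212. Over all 16 libraries miR-29a-3p thus differed more than either of the others, by tests of the difference itself. Depth moved with the group and entered none of these tests. With libraries thinned to the smallest total, both ratios to miR-29a-3p passed (exact permutation adjusted p = 0.0120 for miR-29b-3p and 0.0030 for miR-29c-3p). In the shared depth range, where no split can go below p = 0.200, neither did.

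**Figure D3:**
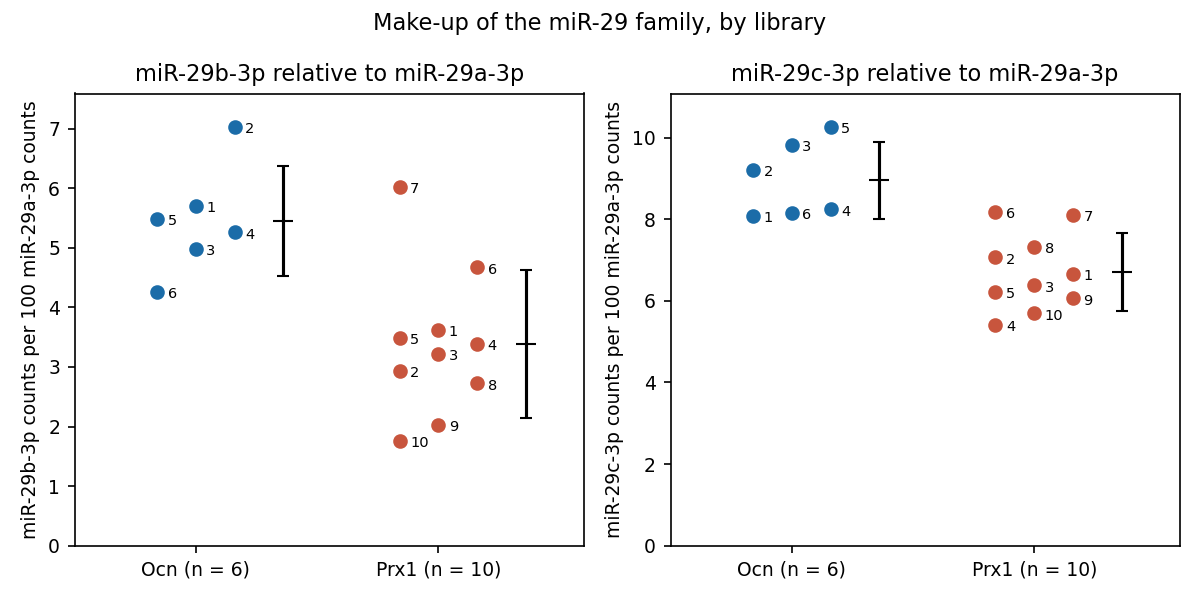
Counts of miR-29b-3p (left) and miR-29c-3p (right) for every 100 counts of miR-29a-3p (vertical axes, from 0), with 1 numbered point per library, Ocn left of Prx1, and the mean ± SD beside the points. In both panels 8 of 10 Prx1 libraries lie below every Ocn library, and Prx1 6 and Prx1 7 lie in the Ocn range.

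From mouse to mouse, the correlation of miR-29c-3p with miR-29a-3p passed the threshold by Pearson's r in both groups and by rank in Prx1 only. Over the Prx1 libraries their log2 CPM had Pearson's r of 0.93 (permutation p = 8.0e-05, adjusted p = 0.00048 over 6 relations) and Spearman's rho of 0.95 (permutation p = 0.00012, adjusted p = 0.00072), n = 10. Without Prx1 6 and Prx1 7, the libraries farthest from the median, r was 0.84. Over the Ocn libraries r was 0.96 (exact permutation p = 0.0139, adjusted p = 0.0417) and rho 0.83 (exact permutation p = 0.0583, adjusted p = 0.175), n = 6, and r was 0.79 without Ocn 3 and Ocn 5. The 1-base difference between these microRNAs is a route by which reads could be exchanged, and its part in this relation was not tested.

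miR-29b-3p showed no such relation past the threshold. With miR-29a-3p, its neighbour in the chromosome 6 cluster, r was 0.31 in Prx1 (permutation p = 0.390, adjusted p = 0.390; rho 0.30, permutation p = 0.405) and 0.62 in Ocn (exact permutation p = 0.197, adjusted p = 0.296; rho 0.20, exact permutation p = 0.714). Without the 2 farthest libraries these r were 0.33 in Prx1 and 0.31 in Ocn. With miR-29c-3p, r was 0.37 in Prx1 (permutation p = 0.295, adjusted p = 0.354; rho 0.39, permutation p = 0.264) and 0.72 in Ocn (exact permutation p = 0.0944, adjusted p = 0.189; rho 0.66, exact permutation p = 0.175), and without the 2 farthest libraries -0.01 in Prx1 and 0.55 in Ocn. The difference between these correlations and that of miR-29a-3p with miR-29c-3p was not tested.

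**Figure D4:**
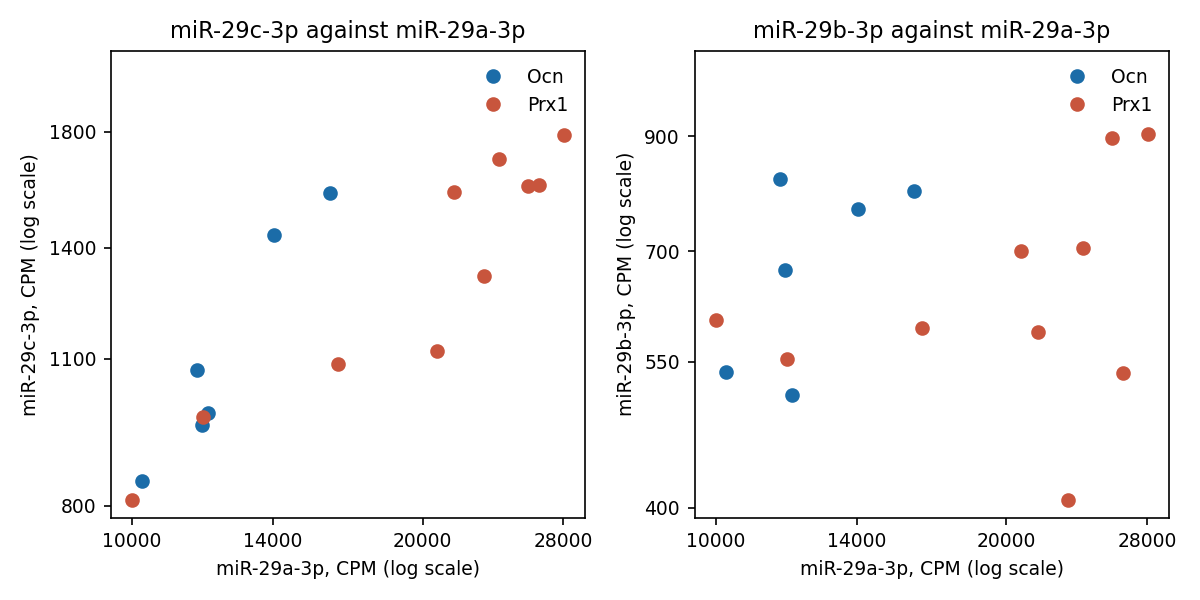
Level of miR-29c-3p (left) and miR-29b-3p (right) against that of miR-29a-3p, all in CPM on log axes, with 1 point per library coloured by group. miR-29c-3p rises with miR-29a-3p in both groups. Prx1 libraries lie further to the right at a given miR-29c-3p level, except Prx1 6 and Prx1 7, which lie beside Ocn libraries. miR-29b-3p shows a wide scatter.

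Over all 16 libraries and all tested entries, the pattern of miR-29a-3p was most like that of miR-29c-3p, with a Spearman rho of 0.92 (0.90 as Pearson's r once group means were removed), given as a description. Outside the family, rho was 0.91 for miR-339-5p, 0.90 for miR-140-3p, a microRNA of cartilage, 0.87 for miR-30d-5p, 0.81 for miR-106b-3p and 0.80 for miR-574-3p. With group means removed, r for these 5 ran from 0.58 for miR-574-3p to 0.92 for miR-140-3p. Of them miR-339-5p (log2 fold change -0.53), miR-30d-5p (-0.58) and miR-574-3p (-0.97) were called lower in Ocn by edgeR (adjusted p = 0.0257, 0.00478 and 0.000563), beside 7.69% of all tested entries. Likeness over all 16 libraries favours entries that are lower in Ocn, as miR-29a-3p is, so these calls are partly built into the choice. The call of miR-339-5p was kept in 12 of 16 fits that each left out 1 library and in 9 of 14 other settings.

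The entries most like miR-29c-3p outside the family were miR-142a-5p (rho 0.84), miR-339-5p (0.83), miR-126a-5p, the endothelial microRNA (0.82), miR-30e-5p (0.82) and miR-30d-5p (0.81). Those most like miR-29b-3p were miR-142a-3p, shared by leukocytes (0.79), miR-30c-5p (0.77), the myeloid miR-223-3p (0.74), the erythroid miR-451a (0.70) and miR-30e-5p (0.67). The edgeR adjusted p of these 5 ran from 0.229 for miR-223-3p to 0.936 for miR-30e-5p. Placed among the tested non-members, miR-29c-3p ranked 46 and miR-29a-3p ranked 96 in likeness to miR-29b-3p, with rho of 0.39 and 0.17. All these values are shares of the same library totals, so an entry that takes a larger share lowers the others.

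The opposite arms of the hairpins, the passenger strands, were near the limit of detection, and none passed the low-count filter. miR-29c-5p had 50 counts over the Ocn libraries (8.92 CPM, exact Poisson interval 6.62 to 11.8) and 28 over the Prx1 libraries (6.90 CPM, 4.58 to 9.97). miR-29a-5p had 27 counts in Ocn (4.82 CPM, 3.18 to 7.01) and 13 in Prx1 (3.20 CPM, 1.71 to 5.48), and was at 0 in 3 Prx1 libraries. There the exact Poisson upper limit was 4.53 CPM in Prx1 9, 10.1 in Prx1 10 and 10.9 in Prx1 5. In Ocn it made up 0.0384% of the counts of both arms (exact Clopper-Pearson interval 0.0253 to 0.0558%), and in Prx1 0.0148% (0.00789 to 0.0253%). Intervals and upper limits cover counting error only. Without a low-count filter edgeR gave log2 fold changes of 0.53 (SE 0.60) for miR-29a-5p and 0.44 (SE 0.45) for miR-29c-5p, with adjusted p of 0.628 and 0.563.

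Of the 5p arms shown above that mark the miR-29b loci, miR-29b-1-5p had 4.64 CPM over the Ocn libraries (exact Poisson interval 3.03 to 6.80) and 4.93 CPM over the Prx1 libraries (3.01 to 7.61). miR-29b-2-5p had 1.61 CPM in Ocn (0.734 to 3.05) and 0.985 CPM in Prx1 (0.268 to 2.52). Over the Ocn libraries 26 of 35 such counts were miR-29b-1-5p, from chromosome 6, or 74.3% (exact Clopper-Pearson interval 56.7 to 87.5%), and over the Prx1 libraries 20 of 24, or 83.3% (62.6 to 95.3%). Single libraries weighed on these pooled counts: in Ocn, Ocn 4 gave 11 of 26 miR-29b-1-5p counts and Ocn 5 gave 5 of 9 miR-29b-2-5p counts. The intervals, which cover counting error only, overlapped, and a shift between the loci was not tested. The locus shares describe the passenger strands and need not hold for the mature miR-29b-3p of each locus.

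Other microRNAs with reported roles in bone or matrix were set beside the family, in lists chosen with earlier results of these data known. Of 16 others reported to promote osteoblast differentiation, 12 were tested and 2 were called higher in Ocn, with a median log2 fold change of 0.19 against 0.01 over all tested entries, of which 5.98% were called higher. The called ones were miR-181a-5p (3083 ± 403 CPM in Ocn and 1973 ± 253 CPM in Prx1, log2 fold change 0.61, SE 0.11, edgeR adjusted p = 0.00125) and miR-218-5p, a promoter of Wnt signalling in osteoblasts (0.39, SE 0.12, edgeR adjusted p = 0.0283). The call of miR-218-5p was kept in 10 of 16 fits that each left out 1 library and in 8 of 14 other settings, and that of miR-181a-5p in 16 and 12. With log10 depth as a covariate, and in the libraries of the shared depth range, 0 entries were called, those of these lists included. miR-26b-5p (0.24, SE 0.10) and miR-26a-5p (0.19, SE 0.08) missed the threshold (edgeR adjusted p = 0.133 and 0.154).

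Of 27 microRNAs reported to restrain osteoblast differentiation, 19 were tested, 1 was called higher and 2 lower in Ocn, beside 5.98% and 7.69% of all tested entries, and the list's median log2 fold change was -0.00039. miR-27a-3p was higher (0.66, SE 0.14, edgeR adjusted p = 0.00299), while miR-30d-5p (-0.58, SE 0.13, edgeR adjusted p = 0.00478) and miR-133a-3p, a muscle microRNA that targets Runx2 (-0.68, SE 0.16, edgeR adjusted p = 0.00819), were lower. miR-23a-3p had 0.32 (SE 0.13, edgeR adjusted p = 0.0917). Of 17 others reported to act on collagen genes or fibrosis, 16 were tested, 1 was called higher (miR-199a-5p, 0.43, SE 0.13, edgeR adjusted p = 0.0290) and 1 lower (miR-133a-3p), again beside 5.98% higher and 7.69% lower over all entries. The call of miR-199a-5p was kept in 9 of 16 fits that each left out 1 library and in 7 of 14 other settings. In that list miR-101a-3p had 0.35 (SE 0.18, edgeR adjusted p = 0.187), and the list's median was -0.01.

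**Figure D5:**
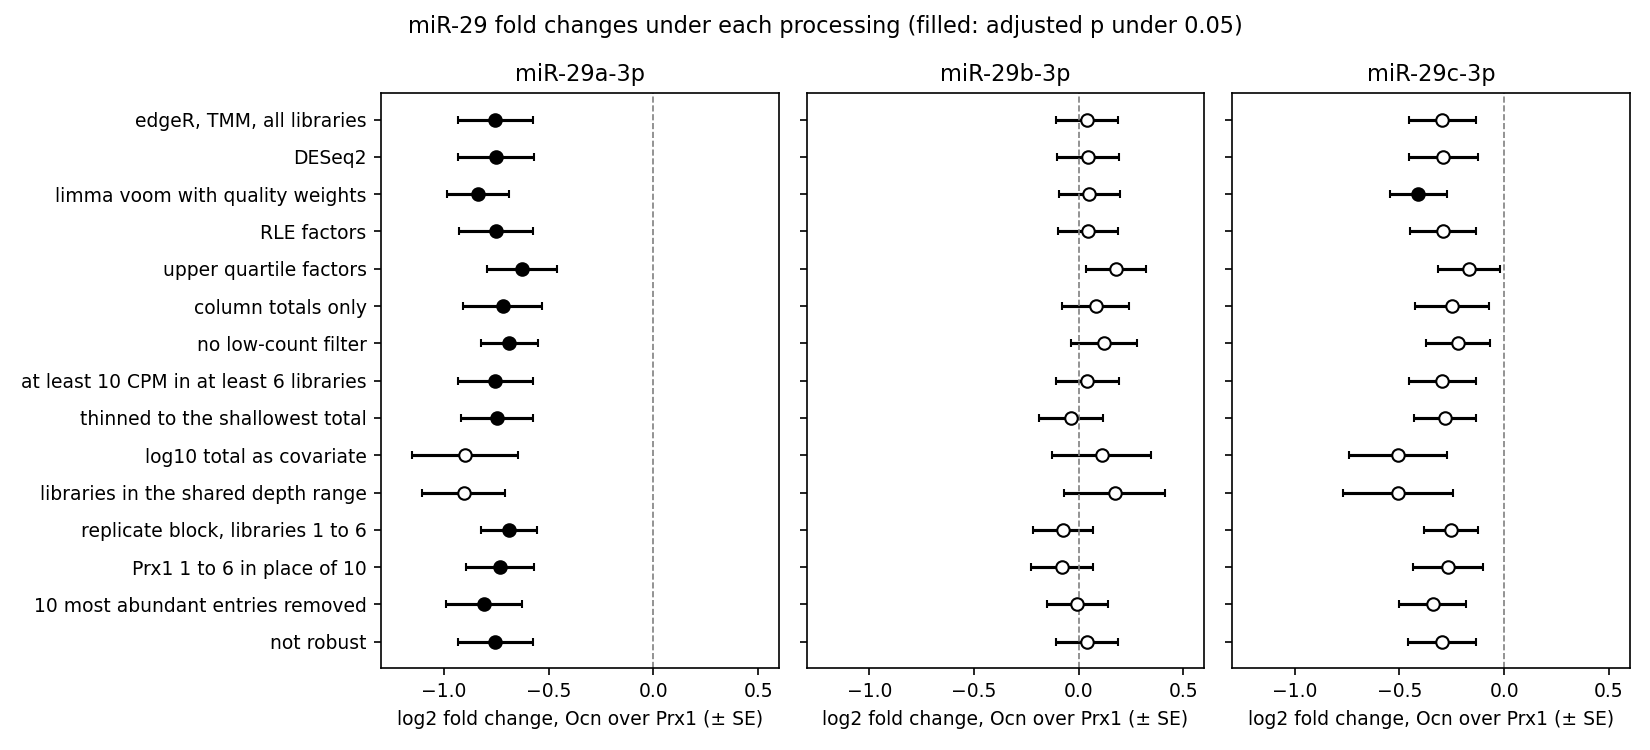
Log2 fold change of Ocn over Prx1 for each miR-29 member (horizontal axes, ± SE) under each processing (rows), with filled points for an adjusted p under 0.05. miR-29a-3p lies between -0.91 and -0.63 in every row shown and is open in the rows with the log10 total as a covariate and with the libraries of the shared depth range, and filled in the row thinned to the shallowest total. miR-29b-3p lies on both sides of 0.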

How the data were processed

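The authors deposited raw counts per mature microRNA and library, not normalized, as the whole-number values show. The submitters' processing notes name cutadapt 1.18 and the mm10 genome. Per the labels' protocols, 1 ng of total RNA went into each QIAseq library. The sources used here do not give the aligner, the counter or any use of molecular identifiers, and ligation preferences between microRNAs were not corrected.

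CPM values are counts scaled to a library total of 1000000. Ocn over Prx1 was fitted across all entries that passed filterByExpr (234) with edgeR 4.0.16 (R 4.3.3), using its robust quasi-likelihood test, TMM factors and a threshold of 0.05, after a run on simulated data with known changes. SE was the size of the log2 fold change divided by the square root of F. Ratios used 0.5 added to each count and an exact permutation test. Correlations used 100000 resamples for 10 libraries and all pairings for 6 (scipy 1.17.1). Alternatives included DESeq2 1.42.0 and limma 3.58.1 (voom). Depth ran from 225273 to 1536421 counts. None of the 60 same-group pairs of libraries was a repeat (lowest chi-square per degree of freedom 5.04).

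The members, lists and tests were chosen with earlier results of these data known. The microRNAs named were the members, their opposite arms, the 5 entries most like each member by Spearman's rho, and up to 4 entries of each list with the smallest p. Sex is not given per library and entered no fit.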

Additional observations from a re-analysis of the deposited data

How the results depend on the processing

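The direction of miR-29a-3p held in all 14 alternatives and in all 16 fits with a library left out (log2 fold change -0.84 to -0.67, highest edgeR adjusted p = 0.0187). Its call was lost with the log10 total as a covariate (-0.90, adjusted p = 0.0869) and in the libraries of the shared depth range (-0.91, adjusted p = 0.0860), where edgeR called 0 and 0 entries of the whole table (40 and 30 at an unadjusted p under 0.05). It was kept with all libraries thinned to the smallest total (-0.75, adjusted p = 0.00574). The count of called entries was otherwise 27 to 48 and, with a library left out, 24 to 36. miR-29c-3p ran from -0.36 to -0.19 with a library left out and passed only with limma voom (-0.41, adjusted p = 0.0363). It was -0.51 with the log10 total as a covariate (edgeR adjusted p = 0.263) and -0.51 in the shared depth range (adjusted p = 0.466). miR-29b-3p, called in no fit, turned negative after thinning (-0.037), with Prx1 1 to 6 in place of 10 (-0.082), with the 10 most abundant entries removed (-0.0064) and without Prx1 10 (-0.023), where the range over libraries left out was -0.023 to 0.17. Upper quartile scaling moved the median of all entries to 0.13, against 0.01, and gave 26 higher and 11 lower calls against 14 and 18, with miR-29a-3p at -0.63.

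The replicate block over libraries 1 to 6 gave -0.69 for miR-29a-3p (adjusted p = 0.00338), -0.074 for miR-29b-3p and -0.25 for miR-29c-3p. Libraries of the same number shared little deviation: its correlation exceeded 0.1 in 2 of 6 pairs (-0.04 to 0.22). These values cannot show whether libraries of the same number were handled together. Under the replicate block the log2 ratios to miR-29a-3p differed by 0.61 for miR-29b-3p and 0.43 for miR-29c-3p. Exact sign flips gave p = 0.0625 for both (adjusted p = 0.0938), where the lowest possible unadjusted p was 0.0313. In the shared depth range they differed by 1.07 and 0.38, where no split can go below p = 0.200. With a library left out they ran from 0.66 to 0.85 for miR-29b-3p and from 0.38 to 0.46 for miR-29c-3p, all past the threshold, and the ratio of miR-29c-3p to miR-29b-3p ran from -0.40 to -0.26. The cause of these changes was not tested. The 5p arms were left out of other settings, and the planned ratio of arms was not fitted, because no 5p arm passed the filter.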
